A study of Rattus norvegicus with 17 samples.

Results

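The genes of catecholamine synthesis and vesicular storage were examined on expression arrays of tumour tissue from rats given a kinase inhibitor or a control substance. The group comprised Th, Dbh, Ddc, Slc18a1 and Slc18a2, chosen by function with earlier results of these data known. Each symbol was matched to the probe sets annotated with that symbol alone, which gave 1 probe set per gene, and 5 of the 14506 genes measured were members. The 17 arrays came from rats aged 8 months on a Sprague-Dawley white eye/Wistar-Kyoto background that were mutant in Cdkn1b, which encodes p27Kip1, an inhibitor of cyclin-dependent kinases, so that controls and treated rats shared the mutation. The sample labels give the mutation as homozygous and the series design gives it as heterozygous. Of the 17 arrays, 7 were controls given PEG (polyethylene glycol), listed at 20 mg/kg, with 5 from female and 2 from male rats. NVP-BEZ235, an inhibitor of phosphoinositide 3-kinase and mTOR, was given at 20 mg/kg for 6 arrays (4 female, 2 male) and at 30 mg/kg for 4 arrays (3 female, 1 male). The length of treatment is not given in the sources used here, and the protocol field of the labels names no treatment.

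Catecholamines are made from tyrosine in a chain of enzyme steps. Tyrosine hydroxylase (Th) makes L-DOPA and is the rate-limiting enzyme, aromatic L-amino acid decarboxylase (Ddc) converts L-DOPA to dopamine, and dopamine beta-hydroxylase (Dbh) converts dopamine to noradrenaline inside the storage vesicle. The vesicular monoamine transporters VMAT1 (Slc18a1) and VMAT2 (Slc18a2) carry amines into the vesicle against a proton gradient. Chromaffin cells of the adrenal medulla and the tumours that arise from them express genes of this set.

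Transcription of Th is known to respond to cyclic AMP through a cyclic AMP response element (CRE), so the stretches around the CRE letters are shown for the members that hold them. The promoter sequences came from RefSeq on build GRCr8, and 4 of the 5 members matched an entry, the one without being Slc18a1. Each line is 30 bases, read 5′ to 3′ on the strand of the gene, with the motif letters in capitals.
Th, chr1:207508269-207508298, minus strand: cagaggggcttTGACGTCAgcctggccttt
Slc18a2, chr1:268399958-268399987, plus strand: agtgctatccgTGACGTCAgagccggactg
Dbh, chr3:30886142-30886171, plus strand: atgatgtccatgCGTCAttagtgtcaatta
The full CRE letters TGACGTCA, which read the same on both strands, lay 69 to 62 bases before the annotated start of Th and 52 to 45 bases before that of Slc18a2. Of the 33469 upstream windows of 250 bases in the table, 1.59% held them. Dbh held only the half-site (TGACG or, on the other strand, CGTCA, which a full CRE also contains), and 18.2% of windows held it. None of these letters were in the windows of Ddc. A match of letters is a description of sequence and was not tested as a binding site.

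The tissue is labelled pituitary adenoma, whereas the title of the series names pheochromocytoma, a tumour of chromaffin cells. The median over the 14506 genes averaged 5.75 on the log2 scale. Of the 11 pituitary hormone and lineage markers measured, 11 had a mean over the 17 arrays below it, though Prl, the prolactin gene, reached 9.16 in 1 control and averaged 6.15 ± 1.46 (SD, n = 7) over the controls. Of 14 chromaffin markers other than the members, 0 had a mean below it, and of 13 adrenal cortex markers 3 did, with a cortex list mean between 9.06 and 10.21 over the 17 arrays. Medians over all probe sets lay between 4.95 and 5.11. Whether each array had its own rat is not stated in the labels, so the p-values reflect only how these arrays vary, and bulk tissue cannot tell fewer cells of a type from less RNA per cell. Sample-title numbers run from 1 to 7 in controls, from 1 to 4 at 30 mg/kg and from 5 to 10 at 20 mg/kg, so each dose was also compared with the controls that share its range of numbers. What the numbers stand for is not stated.

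The members lay at very different positions among the genes of their arrays. Th and Dbh were among the strongest signals on every array, with log2 values of 12.29 ± 0.32 and 12.32 ± 0.25 (SD, n = 17) and percentiles of at least 99.3 for Th and 99.5 for Dbh. Ddc had a mean of 10.39 ± 0.997 (SD, n = 17), with a median percentile of 98.5 and a lowest of 81.7. Slc18a1 had a mean of 9.64 ± 0.72 (SD, n = 17) and a median percentile of 96.2. Slc18a2 was near the middle of the array in most samples, with a mean of 6.15 ± 1.09 (SD, n = 17), a median percentile of 48.6 and a highest of 89.8. SDs across samples thus ranged from 0.25 for Dbh to 1.09 for Slc18a2.

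**Figure D1:**
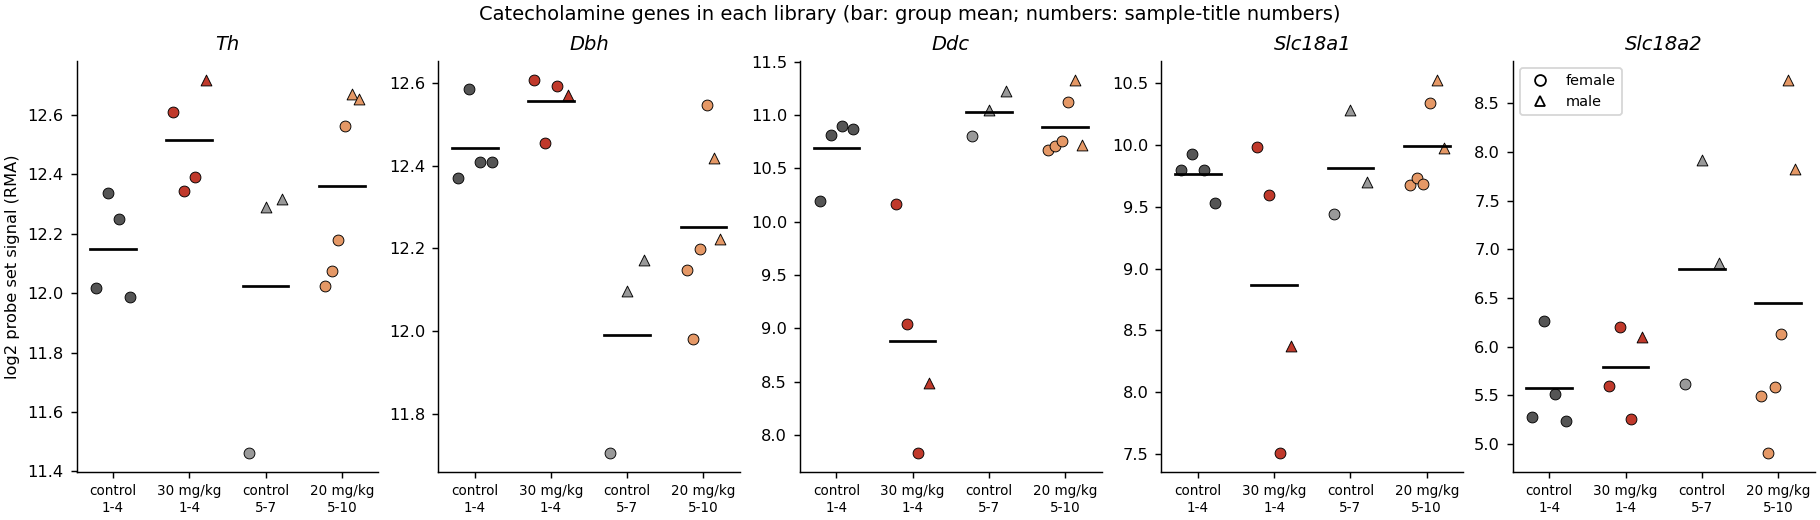
Deposited log2 probe set signal (vertical axis) of the 5 genes in each array, by group and title-number set (horizontal axis), with circles for female and triangles for male rats and bars for group means. The 4 arrays at 30 mg/kg lie below all other arrays for Ddc, and the highest Slc18a2 values are those of male rats.

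Ddc was the member with the clearest change: it was lower at 30 mg/kg and close to control at 20 mg/kg. Its log2 values at 30 mg/kg were 10.17, 9.04, 7.83 and 8.49 in replicates 1 to 4. The 7 controls ranged from 10.19 to 11.22 with a median of 10.87, and the 6 arrays at 20 mg/kg from 10.68 to 11.33 with a median of 10.74. All 4 arrays at 30 mg/kg were below every control and every 20 mg/kg array, but replicate 1 was only just below the lowest control, and replicates 3 and 4 were the lowest. With sex as a term in limma, Ddc fell by 1.95 ± 0.31 (SE) on the log2 scale at 30 mg/kg against the 7 controls, a 3.86-fold decrease (95% interval -2.59 to -1.30, adjusted p = 0.00132). It was the only member to pass an adjusted p of 0.05 in this comparison, 1 of 5 beside 8.55% of all genes (4.89% lower). Groups did not overlap for Ddc and Th, beside 3.76% of all genes.

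Against the controls that share its title numbers, Ddc fell by 1.82 ± 0.36 (SE, 4 against 4 arrays, limma adjusted p = 0.0144), where 1 of 5 members and 3.01% of all genes passed. An exact two-sided permutation test of the same 8 values gave p = 0.029, the smallest it can give. At 20 mg/kg the difference from the controls numbered 5 to 7 was -0.13 ± 0.36 (SE, limma adjusted p = 0.97), with an interval of -0.90 to 0.65, and 0 of 5 members passed, beside 0.358% of all genes (2 of 5, Th and Dbh, had an unadjusted limma p under 0.05). Against all 7 controls the 20 mg/kg difference of Ddc was 0.04 ± 0.27 (SE, adjusted p = 0.95), again with 0 of 5 members passing, beside 1.18% of all genes (0 of 5 also at an unadjusted p under 0.05). Against 20 mg/kg, Ddc at 30 mg/kg was lower by a factor of 3.98 (limma adjusted p = 0.0031), in a comparison where 12.1% of all genes passed, 12.6% did not overlap, and where dose and title-number set cannot be told apart. The difference between the within-set differences was -1.69 ± 0.52 (SE), with an unadjusted limma p of 0.0052 and an adjusted p of 0.64. There 0% of all genes passed in limma, while 971 of 14506 had an unadjusted p under 0.05. Over 17 fits that left out 1 array, the Ddc value ranged from -2.23 to -1.26 (limma adjusted p from 0.038 to 0.89). It passed in 1 of the 17, without replicate 1 at 30 mg/kg (-2.23, adjusted p = 0.038).

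The size of the Ddc decrease rested in part on replicates 3 and 4 at 30 mg/kg. Without both, a setting chosen after the values were seen, the change was -1.14 against all controls (limma adjusted p = 0.051) and -1.09 within numbers 1 to 4 (adjusted p = 0.091). Leaving out any single array kept the call, with values from -2.39 to -1.60 against all controls and from -2.31 to -1.43 within numbers 1 to 4. In female rats alone the change within numbers 1 to 4 was -1.68 (adjusted p = 0.077), and with that set fitted alone it was -1.68 (adjusted p = 0.31).

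Slc18a1, which encodes VMAT1, the vesicular transporter typical of endocrine cells, had the next largest difference at 30 mg/kg, carried by the arrays that were lowest for Ddc. Its log2 values were 9.98, 9.60, 7.51 and 8.37 in replicates 1 to 4 at 30 mg/kg, against 9.44 to 10.28 (median 9.79) in controls and 9.68 to 10.52 (median 9.85) at 20 mg/kg. Replicates 1 and 2 lay inside the control range, and replicates 3 and 4 lay below it. The change at 30 mg/kg was -0.91 ± 0.34 (SE) against all controls (limma adjusted p = 0.11) and -0.94 ± 0.41 within numbers 1 to 4 (adjusted p = 0.24), so neither passed. At 20 mg/kg the within-set difference was 0.23 ± 0.41 (SE, limma adjusted p = 0.94).

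Slc18a1 passed narrowly in the direct comparison of doses, at -1.11 ± 0.35 (SE, limma adjusted p = 0.0497), where 2 of 5 members passed, both lower, beside 8.16% of all genes lower. That call was lost in 15 of 17 fits that left out 1 array, among them every fit without a control. The value was -0.67 without replicate 3 at 30 mg/kg, -0.85 without replicate 4 and -0.09 without both. Against all controls the Slc18a1 change ranged from -1.30 to -0.47 over the 17 fits (limma adjusted p from 0.015 to 0.40). It passed in 1 of the 17, without replicate 1 at 30 mg/kg (-1.30, adjusted p = 0.015).

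Th differed in the opposite direction by a small amount that did not pass the test. Its log2 values at 30 mg/kg were 12.61, 12.34, 12.39 and 12.72, against 12.02, 12.34, 12.25 and 11.99 in controls 1 to 4. All 4 were above all 7 controls, although the lowest of them exceeded control replicate 2 by less than 0.01. An exact two-sided permutation test within numbers 1 to 4 gave p = 0.029, the smallest possible, and 6.98% of all genes showed no overlap there. With sex as a term, the limma difference was 0.43 ± 0.15 (SE, adjusted p = 0.075) against all controls and 0.24 ± 0.14 (adjusted p = 0.41) within the set.

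At 20 mg/kg Th ranged from 12.02 to 12.67 with a median of 12.37, and controls 5 to 7 had 11.46, 12.29 and 12.32. These groups overlapped, and control replicate 5 was the lowest of all 17 arrays. The within-set limma difference was 0.50 ± 0.14 (SE, adjusted p = 0.21), and it was 0.31 in the single-array omission that lowered it most. For both doses together, Th differed by 0.32 ± 0.12 (SE, adjusted p = 0.20), with 8 of 10 treated arrays above the control mean, and 0 of 5 members passed, beside 1.48% of all genes (1 of 5, Th, at an unadjusted p under 0.05). With the title-number set as a term, the Th difference was 0.37 (adjusted p = 0.042).

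Dbh did not pass in any treatment comparison and had the smallest SD of the members. Its log2 values at 30 mg/kg were 12.61, 12.45, 12.59 and 12.57, and those of controls 1 to 4 were 12.37, 12.59, 12.41 and 12.41, so the groups overlapped. The limma difference was 0.07 ± 0.13 (SE, adjusted p = 0.83) within numbers 1 to 4, 0.32 ± 0.13 (adjusted p = 0.43) at 20 mg/kg within numbers 5 to 10, and 0.31 ± 0.15 (adjusted p = 0.22) at 30 mg/kg against all controls. The interval within numbers 1 to 4 reached from -0.20 to 0.34.

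The Dbh values of the control sets did not overlap. Controls 5 to 7 had 11.70, 12.10 and 12.17, all below the 4 controls numbered 1 to 4, in a comparison where 21.4% of all genes did not overlap. The limma difference was -0.56 ± 0.15 (SE, adjusted p = 0.054), and that of Th was -0.46 ± 0.17 (adjusted p = 0.14). None of the 5 members passed in limma, beside 3.61% of all genes, and 2 of 5 (Th and Dbh) had an unadjusted p under 0.05. The Dbh value passed in 1 of 17 fits that left out 1 array, without 20 mg/kg replicate 8 (-0.59, adjusted p = 0.032). Its highest adjusted p over the 17 was 0.32. Ddc, Slc18a1 and Slc18a2 differed between the control sets by 0.31 ± 0.43, -0.05 ± 0.49 and -0.03 ± 0.51 (SE) with sex as a term.

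**Figure D2:**
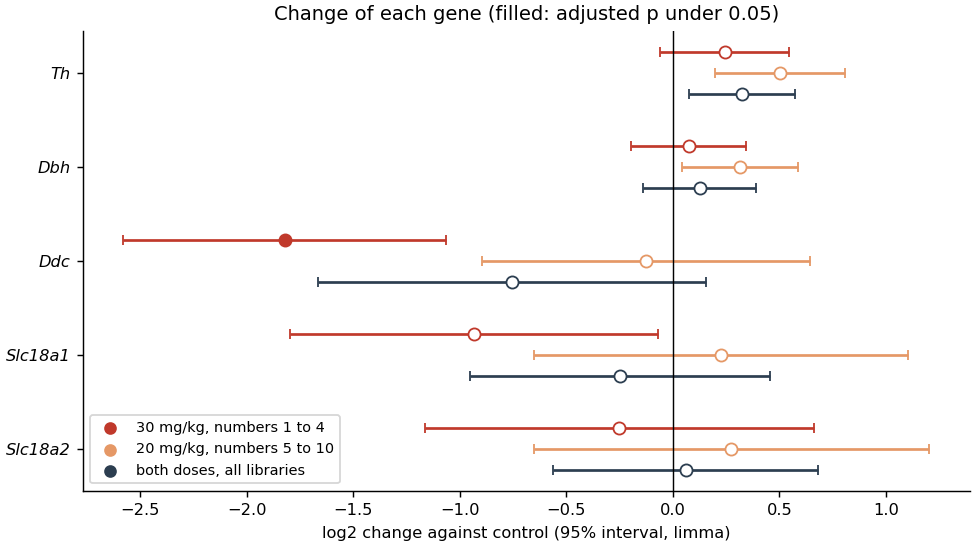
Change of each gene against control on the log2 scale (horizontal axis, limma estimate with its 95% interval) for 30 mg/kg within numbers 1 to 4, 20 mg/kg within numbers 5 to 10, and both doses together. Ddc at 30 mg/kg, at -1.82, is the only filled point, which marks an adjusted p under 0.05.

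Slc18a2, which encodes VMAT2, the transporter of neurons and of noradrenaline-storing cells, did not pass in any treatment comparison but differed by sex. Its log2 values at 30 mg/kg were 5.60, 6.20, 5.26 and 6.10 in replicates 1 to 4, against 5.28, 6.26, 5.51 and 5.24 in controls 1 to 4. The limma difference was -0.25 ± 0.43 (SE, adjusted p = 0.82) at 30 mg/kg within numbers 1 to 4 and 0.28 ± 0.44 (adjusted p = 0.92) at 20 mg/kg within numbers 5 to 10. The sign of these small values depended on the sex term: without it they were 0.22 and -0.35.

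The comparison by sex was made after its values were seen. Arrays from male rats had Slc18a2 values of 7.92 and 6.86 in controls, 8.74 and 7.83 at 20 mg/kg and 6.10 at 30 mg/kg. The 12 arrays from female rats ranged from 4.91 to 6.26 with a median of 5.55, so 4 male arrays lay above all female arrays and the male array at 30 mg/kg lay within the female range. The difference between male and female rats was 1.90 ± 0.32 (SE) with treatment as a term, 3.73-fold (limma adjusted p = 0.0251), and 1 of 5 members passed, beside 0.241% of all genes. An exact two-sided permutation test gave p = 0.0013. The call was lost in 5 of 17 fits that left out 1 array: control replicate 6 (1.77), 20 mg/kg replicates 5 (1.89), 9 (1.58) and 10 (1.82), and 30 mg/kg replicate 1 (1.90).

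The receptor tyrosine kinase gene Ret, a chromaffin marker, was also higher in male rats, by 1.63 ± 0.27 (SE, limma adjusted p = 0.0251). It was 1 of 14 measured chromaffin markers to pass by sex, beside 0.241% of all genes. Of the 14, 6 had a positive difference, with a list median of -0.02. Th was higher by 0.34 ± 0.13 (SE, adjusted p = 0.23) and did not pass. Ddc, Slc18a1 and Dbh differed by 0.25 ± 0.47, 0.19 ± 0.36 and -0.04 ± 0.14 (SE). Male arrays were 2 of 3 controls numbered 5 to 7 and none of controls 1 to 4, so sex and title-number set overlap. With the set as a term, the Slc18a2 difference was 1.78 (adjusted p = 0.028).

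Across the 17 arrays, 2 of 10 pairs of members passed a permutation test of Pearson's r after adjustment over the 10. Th and Dbh, the enzymes at the start and the end of noradrenaline synthesis, had r = 0.70 (two-sided permutation p = 0.0019, adjusted 0.0097) and Spearman's rho = 0.65 (permutation p = 0.0055, adjusted 0.055). Without the 2 arrays farthest from the median of Th, r was 0.43, so much of the pooled value rested on them. Within the title-number sets it was 0.81 (n = 8, exact p = 0.012) and 0.88 (n = 9, exact p = 0.0026).

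Ddc and Slc18a1 had r = 0.86 (two-sided permutation p = 0.00011, adjusted 0.0011) and rho = 0.56 (permutation p = 0.023, adjusted 0.076). Without the 2 arrays farthest from the median of Ddc, which are replicates 3 and 4 at 30 mg/kg, r was 0.41. Within numbers 1 to 4 r was 0.86 (n = 8, exact p = 0.0062), and within numbers 5 to 10, which hold no 30 mg/kg array, it was 0.67 (n = 9, exact p = 0.058). In the latter set Slc18a1 had higher r with Th (0.79, exact p = 0.0082), Dbh (0.75, exact p = 0.014) and Slc18a2 (0.73, exact p = 0.028). Within numbers 1 to 4 these were -0.34, -0.41 and 0.16. Th and Ddc, which act one after the other in the pathway, had r = -0.22 (permutation p = 0.38, adjusted 0.54), with opposite signs within numbers 1 to 4 (r = -0.52, n = 8, exact p = 0.18) and 5 to 10 (r = 0.50, n = 9, exact p = 0.17). Pooled values mix treatment, sex and set.

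**Figure D3:**
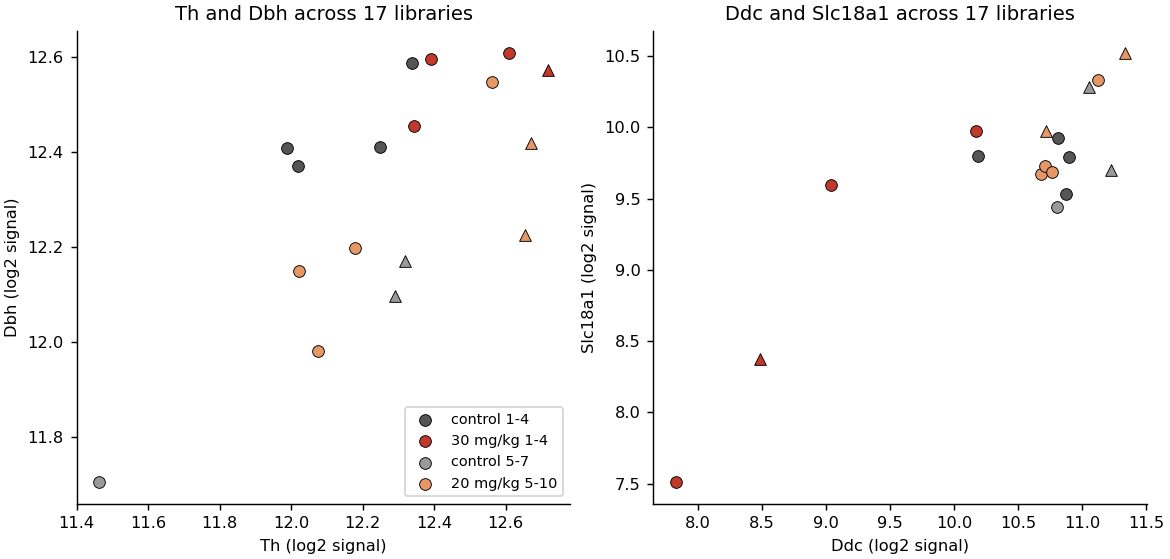
Log2 signal of Th against Dbh (left) and of Ddc against Slc18a1 (right) in the 17 arrays, coloured by group and title-number set, with circles for female and triangles for male rats. Control replicate 5 is the low point at the left for Th and Dbh, and replicates 3 and 4 at 30 mg/kg are the low points for Ddc and Slc18a1.

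Among 63 measured genes of 8 lists around the members, 6 passed at 30 mg/kg within numbers 1 to 4, beside 3.01% of all genes, and all 6 were lower: Slc6a2, Cyb561, Hand2, Gchfr, Chrna3 and Gata2. Slc6a2, the noradrenaline transporter that returns the transmitter from outside the cell, was the gene of these lists with the largest fall. Its log2 values were 7.32, 6.31, 6.68 and 7.43 at 30 mg/kg and 8.67 to 9.80 in controls, without overlap. It fell by 2.58 ± 0.32 (SE, limma adjusted p = 0.00072) within numbers 1 to 4, and the difference was -1.56 ± 0.32 (adjusted p = 0.025) for both doses together. At 20 mg/kg the difference was -0.71 ± 0.32 (adjusted p = 0.49) within its set and -1.04 ± 0.25 (SE, limma adjusted p = 0.0535) against all controls. Slc6a2 was 1 of 5 measured membrane uptake genes to pass within numbers 1 to 4, beside 3.01% of all genes. For both doses together it was also 1 of 5, beside 1.48%. The call for both doses together was lost without control replicate 4 (-1.46) or control replicate 7 (-1.51).

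The cofactor of Th is tetrahydrobiopterin, which is made from GTP by Gch1 under feedback control by Gchfr. Of 5 measured genes of its synthesis and recycling, 3 passed at 30 mg/kg against all controls, beside 8.55% of all genes: Gch1 rose by 0.99 ± 0.24 (SE), while Gchfr fell by 1.36 ± 0.25 and Qdpr, which recycles the cofactor, fell by 0.62 ± 0.14. Within numbers 1 to 4, 1 of 5 passed, Gchfr at -1.47 ± 0.29 (SE, limma adjusted p = 0.016), and Gch1 was at 0.92 ± 0.28 (adjusted p = 0.091). The Gch1 call against all controls was lost without replicate 3 (0.87) or 4 (0.83) at 30 mg/kg, and that of Qdpr without replicate 4 (-0.50).

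Dbh needs copper and ascorbate, and Ddc needs pyridoxal phosphate. Of 6 measured genes of these supplies, 1 passed within numbers 1 to 4, beside 3.01% of all genes. It was Cyb561, the vesicle membrane cytochrome that regenerates ascorbate, which fell by 1.66 ± 0.32 (SE, limma adjusted p = 0.014). Its values at 30 mg/kg were 11.20, 10.59, 9.53 and 9.26, against 11.30 to 12.10 in controls, and without replicates 3 and 4 the difference was -0.97 (adjusted p = 0.074); without replicate 3 alone it was -1.41 (adjusted p = 0.053). At 30 mg/kg against all controls, 1 of the 6 passed as higher and 2 as lower, beside 8.55% of all genes. Beside Cyb561, the ascorbate transporter Slc23a2 rose by 0.92 and the copper pump Atp7a fell by 0.52. Both calls were lost without replicate 2, 3 or 4 at 30 mg/kg, and that of Slc23a2 without control replicate 6 as well, with values of 0.83 to 0.92 and -0.53 to -0.45. The copper importer Slc31a1 differed by -0.30 ± 0.14 (SE, adjusted p = 0.36) for both doses together.

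Of 6 degradation genes, 2 passed at 30 mg/kg against all controls, beside 8.55% of all genes: Aldh2, an aldehyde dehydrogenase, fell by 0.78, and Maoa, monoamine oxidase A, fell by 0.70. None of the 6 passed within numbers 1 to 4, where 2 had an unadjusted limma p under 0.05. The list median was -0.52 against all controls and -0.26 within numbers 1 to 4. All 6 were higher in controls 5 to 7 than in controls 1 to 4 (list median 0.63), and 1 of 6 passed there, beside 3.61% of all genes. The Aldh2 call was lost in 11 of 17 fits without 1 array (values from -1.04 to -0.53 over the 17), with its highest adjusted p, 0.17, without replicate 4 at 30 mg/kg. That of Maoa was lost without replicate 2 (-0.64), 3 (-0.66) or 4 (-0.69) at 30 mg/kg. Akr1b1, aldose reductase, differed by -0.33 ± 0.16 (SE, limma adjusted p = 0.35) for both doses together. Of 16 subunits of the vacuolar proton pump, whose gradient drives the vesicular transporters, 2 passed at 30 mg/kg against all controls, Atp6v0a1 at 0.55 and Atp6v1f at 0.41, both higher, a share near the 8.55% of all genes. Of the list, 12 of 16 had a positive difference with a list median of 0.24, against 0.01 for all genes. Both calls were lost without replicate 3 at 30 mg/kg (0.46 and 0.36), and neither gene passed within numbers 1 to 4, at 0.48 and 0.42.

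Chromaffin cells release catecholamines when acetylcholine opens nicotinic receptors. Of 10 release receptor genes, 1 passed within numbers 1 to 4, beside 3.01% of all genes. It was Chrna3, an alpha subunit of the ganglionic receptor, which fell by 1.36 ± 0.30 (SE, limma adjusted p = 0.026). Its call was lost without control replicate 2 (-1.25), control replicate 3 (-1.25), or replicate 3 (-1.09) or 4 (-1.29) at 30 mg/kg. Its partner Chrnb4 differed by -1.02 ± 0.30 (SE, adjusted p = 0.080).

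Of 10 measured regulators of Th and Dbh transcription, 2 passed within numbers 1 to 4, both lower, beside 3.01% of all genes. They were Hand2 and Gata2, with changes of -1.61 ± 0.29 (SE, limma adjusted p = 0.0092) and -1.17 ± 0.25 (adjusted p = 0.021). The Gata2 call was lost without replicate 3 at 30 mg/kg (-0.94, adjusted p = 0.068). For both doses together, Gata2 differed by -0.77 ± 0.19 (adjusted p = 0.048), a call that held in only 3 of 17 fits that left out 1 array (control replicate 5, or 20 mg/kg replicate 5 or 8). At 30 mg/kg against all controls, 2 of the 10 passed as lower and 2 as higher, beside 8.55% of all genes. Those higher were the immediate early genes Egr1 and Nr4a1, at 2.40 ± 0.64 and 1.97 ± 0.45 (SE). Within numbers 1 to 4 they were at 1.75 (adjusted p = 0.18) and 1.59 (adjusted p = 0.10). The Egr1 call was lost without control replicate 6 (2.12) or 7 (2.24) or 30 mg/kg replicate 3 (2.32) or 4 (1.995), and that of Nr4a1 without 30 mg/kg replicate 4 (1.80).

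None of the 63 passed in limma at 20 mg/kg within numbers 5 to 10, beside 0.358% of all genes. There 5 of the 63 had an unadjusted p under 0.05, beside 1385 of 14506 genes. Against all controls at 20 mg/kg none of the 63 passed either, beside 1.18% of all genes. An unadjusted limma p under 0.05 was found there for 14 of the 63, beside 2522 of 14506 genes. Of 5 measured genes for other amines and acetylcholine, none passed against all controls, beside 8.55% of all genes at 30 mg/kg and 1.18% at 20 mg/kg. At an unadjusted p under 0.05 there were 2 at 30 mg/kg and 0 at 20 mg/kg. In the comparison of 30 with 20 mg/kg 1 of 5 passed, higher, beside 12.1% of all genes. For both doses together, the serotonin transporter Slc6a4 was at -0.43 ± 0.39 (SE, adjusted p = 0.71) and the acetylcholine vesicle transporter Slc18a3 at -0.17 ± 0.13 (adjusted p = 0.61). At 30 mg/kg against all controls Slc6a4 was at -1.14 ± 0.43 (SE, limma adjusted p = 0.11). Slc6a4 had values of 8.10 and 8.29 in replicates 3 and 4 at 30 mg/kg, the arrays lowest for Ddc and Slc18a1, and at least 10.17 on the other 15 arrays.

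**Figure D4:**
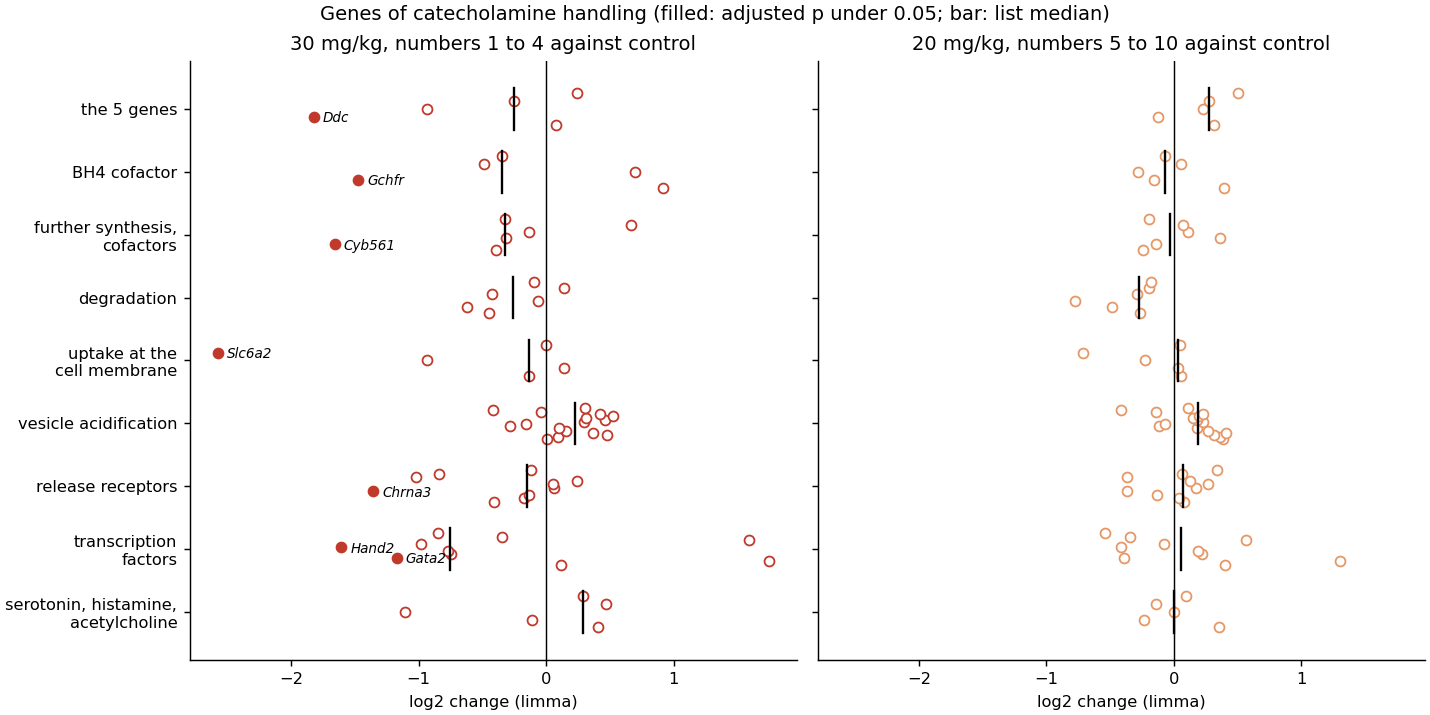
Change of each measured gene against control on the log2 scale (horizontal axis, limma), by list (vertical axis), for 30 mg/kg within numbers 1 to 4 (left) and 20 mg/kg within numbers 5 to 10 (right), with filled points for an adjusted p under 0.05 and bars for list medians. Ddc, Gchfr, Cyb561, Slc6a2, Chrna3, Hand2 and Gata2 are the filled points, all at 30 mg/kg.

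Among the lists of cell markers, the endothelial and macrophage means at 30 mg/kg lay outside the control range. The chromaffin, Schwann and sustentacular, adrenal cortex and pituitary means overlapped it. The mean of 14 chromaffin markers other than the members was 9.73 to 10.11 at 30 mg/kg, 9.91 to 10.21 at 20 mg/kg and 9.83 to 10.28 in controls, ranges that overlap. Against all controls 3 of these markers rose and 3 fell, in a comparison where 8.55% of all genes passed. Those that rose were Penk, Npy and Dlk1, at 2.11, 1.48 and 0.66, and those that fell were Slc6a2, Hand2 and Cyb561. Within numbers 1 to 4, Npy was at 1.32 (limma adjusted p = 0.017), a call lost without replicate 3 at 30 mg/kg (1.15), and Penk and Dlk1 did not pass. The calls of Penk and Dlk1 against all controls were lost without control replicate 6 or 7 or 30 mg/kg replicate 3 or 4, with values of 1.54 to 2.004 and 0.58 to 0.67. The mean of 7 endothelial markers was 7.97 to 8.02 at 30 mg/kg and 7.13 to 7.82 in controls. Of these, 3 of 7 rose against all controls, beside 8.55% of all genes that passed, and 1 of 7 within numbers 1 to 4, beside 3.01%. The mean of 10 macrophage markers was 6.55 to 7.45 at 30 mg/kg and 7.51 to 7.95 in controls, and 4 of 10 fell against all controls and 2 of 10 within numbers 1 to 4. The mean of 6 Schwann and sustentacular markers was 5.22 to 5.74 at 30 mg/kg and 5.22 to 5.68 in controls, and none passed in limma (0 of 6 also at an unadjusted p under 0.05).

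The mean of 13 adrenal cortex markers was 9.55 to 10.10 at 30 mg/kg, 9.06 to 9.67 at 20 mg/kg and 9.34 to 10.21 in controls. Of the 13, 1 passed at 30 mg/kg against all controls, beside 8.55% of all genes, and 1 within numbers 1 to 4, beside 3.01%. In both it was Mrap, which encodes an accessory protein of the ACTH receptor. Mrap was at 1.38 ± 0.23 (SE, limma adjusted p = 0.00194) against all controls and 1.31 ± 0.27 (adjusted p = 0.0176) within numbers 1 to 4. At 20 mg/kg against all controls 1 of the 13 passed, lower, beside 1.18% of all genes. It was the ACTH receptor gene Mc2r, at -1.47 ± 0.26 (SE, limma adjusted p = 0.0167), and at -1.30 ± 0.34 (adjusted p = 0.146) within numbers 5 to 10. Of the cortex markers, 3 of 13 were higher at 30 than at 20 mg/kg, in a comparison where 12.1% of all genes passed. Of 5 relations of the cortex mean with the members across 17 arrays, none passed after adjustment over the 5. The strongest was with Slc18a2, at r = -0.51 (two-sided permutation p = 0.037, adjusted 0.19), and r was -0.37 without the 2 arrays farthest from the median. Ddc had r = -0.41 with the cortex mean (permutation p = 0.10, adjusted 0.25), and -0.01 within numbers 1 to 4 (n = 8, exact p = 0.98). The mean of 11 pituitary markers was 4.32 to 4.65 at 30 mg/kg and 4.05 to 4.74 in controls. The pituitary hormone gene Pomc was at 7.86 and 5.80 in replicates 3 and 4 at 30 mg/kg and at most 4.49 in controls, with 6.21 in 20 mg/kg replicate 9. The part of these cell markers in the changes of Ddc and its pathway was not tested.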

How the data were processed

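Gene expression was measured on 17 Affymetrix arrays. RMA and Affymetrix Expression Console 1.3.0.187 are named per the submitters' processing notes, and the authors deposited log2 values, between 2.21 and 13.71, that entered the fits unchanged. Of 29214 probe sets, 15310 were annotated with 1 gene symbol, 323 with several and 13581 were not listed. The probe set with the highest mean was kept per symbol, which gave 14506 genes. A linear model per gene with sex as a term was tested with eBayes in limma 3.58.1 (R 4.3.3, two-sided), with Benjamini-Hochberg adjustment over all 14506 genes and a threshold of 0.05. Within-set comparisons came from 1 fit of 4 groups with a shared spread. Comparisons with control share control arrays. Permutation tests were run in Python 3.11.15 with scipy 1.17.1, with 100000 resamples for correlations over 17 arrays. The fit was tested on simulated data only for both doses together against control. Of 200 genes given a log2 change of 1 among 14506, 99.5% were recovered, and 5.69% of calls were false. Comparisons of a single dose, within title-number sets and by sex were not simulated, and recovery by the spread of a gene is not given. The share recovered therefore cannot be carried over to those comparisons or to genes as variable as Ddc and Slc18a1.

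The members and lists were chosen with earlier results of these data known. From each list of pathway genes, those past the threshold for both doses together were named, or otherwise the 2 with the smallest p; Qdpr, Atp7a, Slc23a2, Maoa, Hand2, Egr1, Nr4a1, Penk, Npy, Dlk1, Ret, Pomc, Prl, Mrap and Mc2r were added after their values were seen. For each member, the 5 genes with the highest Pearson r were also named. Of 136 listed genes, 119 had a value. The number of arrays limits the precision. Alternatives covered the sex term, variance model, array weights, scaling, probe set summary, a filter on dim genes, female rats alone, title-number sets and blocks, and leaving out arrays.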

Additional observations from a re-analysis of the deposited data

Results flagged for a closer look

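Of 15 groups of 4 or more arrays examined for a single sample far from the rest, 2 held one, where chance alone gives about 1 group in 20. Control replicate 5 had the lowest Th value of the 7 controls, 11.46, while the other controls lay between 11.99 and 12.34. The same array had the lowest Dbh value, 11.70. Control replicate 1 had the lowest Ddc value of the controls, 10.19, while the others lay between 10.80 and 11.22.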

How the results depend on the processing

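Ddc kept its direction at 30 mg/kg under every alternative run. No member passed at 30 mg/kg against all controls (0 of 5) with the replicate block or without replicates 3 and 4 at 30 mg/kg, and none within numbers 1 to 4 in female rats alone, with the replicate block, with the set fitted alone or without those replicates (0 each). Title numbers did not pair the arrays: same-numbered deviations correlated between -0.29 and 0.23. With the replicate block, Ddc was at -1.74 (limma adjusted p = 0.16) and -1.62 (0.63), and uncalled values changed sign: Slc18a2 at -0.27 (both doses), -0.53 (20 mg/kg), 0.0033 (30 mg/kg, within set) and -0.12 (20 mg/kg, within set), and at 20 mg/kg Ddc at -0.49 and Slc18a1 at -0.072. With the set as a term, 1 member (Th) passed for both doses; for sex, Dbh was at 0.11, Ddc at -0.28 and Slc18a1 at -0.074. Median centring gave 2 members at 30 mg/kg (Th as well), 1 for 30 against 20 mg/kg, 1 between control sets (Dbh), and Dbh at -0.017 for 20 mg/kg; quantile normalization gave 1 for 30 against 20 mg/kg, and Dbh at -0.0029 (both doses), -0.11 (20 mg/kg) and -0.090 (30 mg/kg, within set). Trended variances gave 1 between control sets, and array weights gave Slc18a1 at 0.060 (both doses). Female rats alone gave 1 for 30 against 20 mg/kg, Dbh at -0.077 and Slc18a2 at -0.053 (20 mg/kg), Slc18a2 at 0.11 (30 mg/kg), 0.16 (30 against 20 mg/kg), 0.12 and -0.086 (within sets), 0.042 (control sets) and 0.20 (difference of differences), and Ddc at 0.018 (20 mg/kg, within set); the set fitted alone gave Slc18a2 at 0.12. Without sex, Slc18a2 was at 0.22 and -0.35 (within sets), 1.23 (control sets) and 0.57 (difference), Slc18a1 at 0.046 (control sets) and Th at 0.031 (difference). Without replicates 3 and 4 at 30 mg/kg, 0 members passed for 30 against 20 mg/kg; Slc18a1 was at 0.17 (both doses), 0.10 (30 mg/kg) and 0.024 (within set), Slc18a2 at 0.45, 0.33 and 0.21 (30 mg/kg, within set and against 20 mg/kg), Slc6a4 at 0.064, 0.18 and 0.13, and Slc18a3 at 0.10 and 0.10.

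Leaving out 1 array, members that passed numbered 1 to 2 at 30 mg/kg, within numbers 1 to 4 and for 30 against 20 mg/kg, and 0 to 1 between control sets, for the difference of differences (Ddc, without replicate 1 at 30 mg/kg, adjusted p = 0.038) and for sex. Uncalled values changed sign in ranges of -0.087 to 0.064 for Dbh and -0.057 to 0.11 for Ddc at 20 mg/kg, -0.10 to 0.24 for Slc18a2 for both doses, -0.54 to 0.24 at 30 mg/kg, -0.58 to 0.12 and -0.11 to 0.51 within sets and -0.39 to 0.22 between control sets, -0.25 to 0.21 for Slc18a1 between control sets, -0.027 to 0.71 for Ddc and -0.030 to 0.53 for Slc18a1 by sex, and -0.27 to 0.10 for Slc18a3 within numbers 1 to 4. Of 2655 values computed, 2387 kept direction and call, a count that includes values uncalled both times. Of the rest, 168 lost a call, 31 gained one and 69 changed sign. Precision is limited by 4 arrays at 30 mg/kg.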

Other observations

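Among 7250 genes with a mean above the median, those whose signal followed each member most closely across the 17 arrays are given as a description. For Ddc the highest were Ppfia2 (Pearson's r = 0.975), Plcb4 (0.972), Dzip1 (0.967), Prph (0.958), which encodes the neuronal intermediate filament peripherin, and Dkk3 (0.952). After the mean of each of the 4 groups was subtracted, these were between 0.88 and 0.94. For Slc18a1 they were Tagln and Dpp6 (0.901 each), Tub (0.899), Arhgef3 (0.898) and Dkk3 (0.893), so Dkk3 was named for both Ddc and Slc18a1. For Th the highest was Serinc1 (0.892), followed by Aplp1 and Ccni (0.873 each), Eif4g2 (0.871) and Hipk3 (0.867). For Dbh the highest was Atp6ap1 (0.899), an accessory subunit of the vacuolar proton pump, followed by Gga1 (0.886), Satb1 (0.864), Grina (0.862) and Pttg1ip (0.856). For Slc18a2 they were Anapc5 (0.913), Adora2a (0.862), Zswim5 (0.861), Scube1 (0.849) and Ikbkb (0.848). After the same subtraction r was 0.83 to 0.88 for Slc18a1, 0.82 to 0.90 for Th, 0.66 to 0.80 for Dbh and 0.81 to 0.95 for Slc18a2. These arrays share treatment, sex and set.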
